A study of Mus musculus with 9 samples.

Results

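The genes described here act on newly made collagen chains. They are the prolyl 4-hydroxylase subunits P4ha1, P4ha2 and P4hb, the prolyl 3-hydroxylase P3h1, the lysyl hydroxylases Plod1, Plod2 and Plod3, the lysyl oxidases Lox and Loxl3, and the collagen chaperone Serpinh1. They were chosen by name, and each of the 10 symbols matched 1 of the 34866 Ensembl gene identifiers in the deposited tables. Levels come from mRNA sequencing of mouse primary macrophages and are given as TPM (transcripts per 1000000, corrected for gene length), so each value is relative to its library's total. The 9 libraries form 3 groups of 3: cells kept for 7 days in standard oxygen, cells moved from standard oxygen into 1% oxygen for 3 hours (acute hypoxia), and cells kept for 7 days in 1% oxygen (chronic hypoxia). All cells grew in alpha-MEM with 10% fetal bovine serum and 10% medium conditioned by the L929 fibroblast line, in every group. The labels used here name no strain, genotype, age or tissue of origin. The series calls the 3 libraries of a group biological replicates without saying how separate their cells were, so the p-values measure only the spread between these libraries.

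Hydroxylation of proline and lysine takes place in the endoplasmic reticulum while a collagen chain is being made. Prolyl 4-hydroxylase is a tetramer of catalytic subunits (from P4ha1, P4ha2 or P4ha3) and protein disulfide isomerase (P4hb), and its product, 4-hydroxyproline, keeps the collagen triple helix stable. Lysyl hydroxylases prepare lysines for sugar attachment and cross-linking, and lysyl oxidases begin the cross-links outside the cell. The hydroxylases consume molecular oxygen and 2-oxoglutarate and need ferrous iron, and several of their genes are known targets of the hypoxia-inducible factors (HIF). Macrophages make other proteins with collagen-like stretches, among them complement C1q and scavenger receptors.

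The sample descriptions carry digits that 1 library of each group shares, with no meaning given, and these are written here as codes X, Y and Z. Code X was replicate 1 throughout, code Z was replicate 2 of standard oxygen and replicate 3 of both hypoxia groups, and code Y was the remaining library of each group. The code Z libraries stood apart: over 7107 genes with a mean of at least 10 TPM, the median absolute log2 difference within a group was 0.106 to 0.122 between X and Y and 0.211 to 0.278 between Z and either of them. Results are therefore given first for an unblocked fit of all libraries, and also with the code as a block or without the code Z libraries where this changed a call. Fits without code Z rest on 2 libraries per group, X and Y, which were the most alike. All 8 macrophage markers were above 1 TPM in every library, from 2.21 TPM for Mertk upward. Mertk had 2.21 to 3.37 TPM in code Z and 21.8 to 33.3 TPM in X and Y. Of 8 fibroblast markers, 7 were below 1 TPM in all 9 libraries (at most 0.150 TPM, with Postn at 0), and their summed level, mostly Thy1, was 0.857 to 1.92 TPM in standard oxygen, 0.912 to 1.93 in acute and 1.30 to 2.09 in chronic hypoxia. Markers of dendritic cells and lymphocytes were below 1 TPM in every library, with sums of 0.159 to 0.579 and 0 to 0.296 TPM. The summed endothelial markers, nearly all Pecam1, were 10.9 to 22.0 TPM in standard oxygen, 15.3 to 25.8 in acute and 39.3 to 42.8 in chronic hypoxia. The neutrophil sum, nearly all S100a8, was 895 to 1593, 937 to 1907 and 258 to 582 TPM in that order, and the osteoclast sum, mostly Ctsk, ranged from 8.44 to 52.9 TPM over the 9 libraries. Ctsk differed by code, with 33.9 to 51.0 TPM in code Z and 7.57 to 11.9 TPM in X and Y. The part of these markers in the results was not tested, and in bulk libraries fewer cells of a type and less RNA per cell cannot be told apart.

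The promoters of P4ha1, P4ha2, P4hb and Plod1 are shown. These are 4 of the 5 genes that passed in at least 1 analysis of chronic hypoxia relative to standard oxygen (the other, Lox, was not read), and they are printed because the core letters of the HIF-binding element can be read in them. The motifs searched on both strands were ACGTG and GCGTG, in the 300 bases from 250 before to 50 after the RefSeq start of the gene, and they are in capitals. The sequences are from RefSeq (GRCm38.p6), on the strand of the gene, at chr10:59323046-59323345 (+) for P4ha1, chr11:54100674-54100973 (+) for P4ha2, chr11:120573204-120573503 (-) for P4hb and chr4:147936727-147937026 (-) for Plod1.
P4ha1: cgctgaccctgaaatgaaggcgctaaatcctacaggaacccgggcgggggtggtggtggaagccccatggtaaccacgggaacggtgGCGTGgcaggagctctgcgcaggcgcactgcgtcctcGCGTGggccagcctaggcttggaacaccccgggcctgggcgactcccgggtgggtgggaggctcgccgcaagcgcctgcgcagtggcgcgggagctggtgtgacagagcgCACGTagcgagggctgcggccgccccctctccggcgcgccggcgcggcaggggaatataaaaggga
P4ha2: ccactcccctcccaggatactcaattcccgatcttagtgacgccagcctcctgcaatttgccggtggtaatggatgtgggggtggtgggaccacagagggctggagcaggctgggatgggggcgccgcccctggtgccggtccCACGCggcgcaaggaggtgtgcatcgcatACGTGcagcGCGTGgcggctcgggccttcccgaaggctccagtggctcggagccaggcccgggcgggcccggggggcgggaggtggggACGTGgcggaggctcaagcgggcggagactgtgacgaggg
P4hb: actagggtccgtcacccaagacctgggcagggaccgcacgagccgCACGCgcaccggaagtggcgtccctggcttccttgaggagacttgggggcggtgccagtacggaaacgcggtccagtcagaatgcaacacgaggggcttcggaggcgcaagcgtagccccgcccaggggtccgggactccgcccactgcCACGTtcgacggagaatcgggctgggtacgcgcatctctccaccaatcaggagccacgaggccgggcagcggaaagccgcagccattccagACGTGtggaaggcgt
Plod1: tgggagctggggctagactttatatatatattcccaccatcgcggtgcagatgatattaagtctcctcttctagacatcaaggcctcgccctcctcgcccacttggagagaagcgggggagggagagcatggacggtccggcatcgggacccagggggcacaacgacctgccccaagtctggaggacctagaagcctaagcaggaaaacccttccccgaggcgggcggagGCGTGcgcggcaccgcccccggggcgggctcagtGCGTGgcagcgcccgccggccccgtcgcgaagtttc
P4ha2 held 4 matches, P4ha1 and P4hb 3 each and Plod1 2. Such matches are common, since 43.8% of 32851 promoters of this length held at least 1 (19.6% held ACGTG and 32.4% held GCGTG). Promoters were read for 7 of the 10 genes, and each held a match, with 4 for Plod3 and 1 for Serpinh1. Lox was excluded from the search, and no promoter sequence was available for Plod2 and Loxl3, so matches in these genes are unknown. A match describes letters and is not evidence of binding.

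The 10 genes covered a wide range of levels. In standard oxygen P4hb had 281 ± 34.3 TPM (SD, n = 3), followed by P4ha1 with 99.2 ± 41.9, Plod3 with 82.9 ± 18.5 and Plod1 with 61.4 ± 3.15 TPM. The last 3 did not all separate, as the libraries of P4ha1 and Plod3 overlapped. P3h1 (7.17 ± 1.64 TPM) and P4ha2 (1.77 ± 1.11 TPM, SD, n = 3) were lower and did not overlap each other. Loxl3 lay between 0.361 and 2.33 TPM over the 9 libraries. Plod2, the lysyl hydroxylase of the collagen telopeptides (the short ends outside the helix), did not exceed 0.0791 TPM. Serpinh1, which encodes the collagen chaperone HSP47, was listed at 0 in 7 of 9 libraries and at 0.0348 and 0.0316 TPM in standard oxygen libraries Y and Z. Lox had no common level and is described below. Genes with a mean of at least 1 TPM over the 6 libraries compared were tested: 7 of the 10 in each comparison, without Plod2, Loxl3 and Serpinh1.

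**Figure D1:**
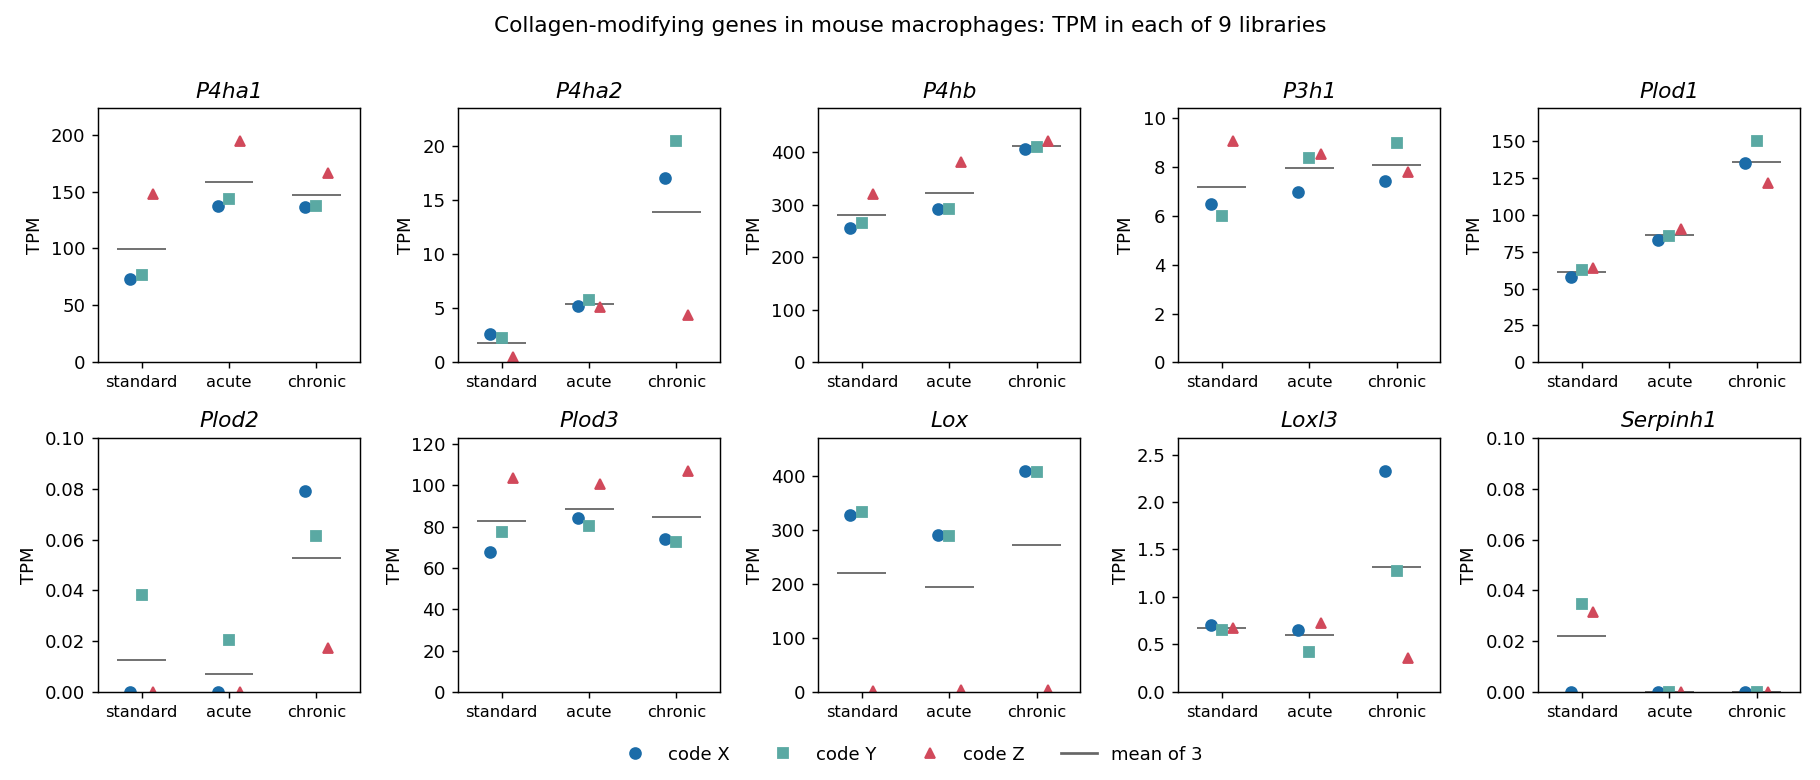
TPM of each of the 10 genes (vertical axes, linear, scaled per gene) in standard oxygen, acute hypoxia and chronic hypoxia; points are libraries, with shape and colour for the sample code, and lines are means of 3. Plod1 goes up from group to group without overlap, Lox is at most 3.03 TPM in the code Z libraries and at least 289 TPM in the other 6, and Plod2 and Serpinh1 stay below 0.1 TPM.

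P4ha2, a catalytic subunit of prolyl 4-hydroxylase (chr11:54100095-54131665, GRCm38), had the largest fold differences between oxygen groups among the 7 tested genes. The libraries of codes X, Y and Z had 2.58, 2.22 and 0.506 TPM in standard oxygen. They had 5.24, 5.74 and 5.14 TPM after acute and 17.0, 20.4 and 4.33 TPM after chronic hypoxia. Both hypoxia groups lay above standard oxygen without overlap, but the chronic library of code Z was below all 3 acute ones. The log2 fold change between chronic hypoxia and standard oxygen was 2.29 ± 0.593 (SE), and limma's adjusted p of 0.0963 did not pass in the unblocked fit. P4ha2 rose when the code was a block (SE 0.203, limma adjusted p 0.0092) and when code Z was left out (2.53 ± 0.144, adjusted p 0.00178). For acute hypoxia and standard oxygen the value was 1.30 ± 0.339 (SE), with a limma adjusted p of 0.36 unblocked and 0.151 blocked. It was 0.80 in X, 1.06 in Y and 2.03 in Z. Without code Z the value was 0.93 ± 0.144 (limma adjusted p 0.0485). That adjusted p became 0.0523 after median-of-ratios rescaling, an alternative that scales each library by its genes' median ratio to a common reference. Chronic and acute hypoxia differed by 1.00 ± 0.504 (log2, SE; limma adjusted p 0.311) in all libraries and by 1.60 ± 0.132 (adjusted p 0.00509) without code Z. By code, this log2 difference was 1.53 in X, 1.67 in Y and -0.20 in Z.

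P4ha1, the more abundant catalytic subunit (chr10:59323296-59373304), had 73.4 and 76.7 TPM in the standard oxygen libraries X and Y and 148 TPM in Z. Acute hypoxia gave 137, 143 and 194 TPM, and chronic hypoxia 136, 137 and 167 TPM, in the order X, Y, Z. The standard oxygen library of code Z lay within the range of both hypoxia groups, so the groups overlapped, and code Z was highest within every group. Acute hypoxia differed from standard oxygen by 0.73 ± 0.289 (log2, SE), with a limma adjusted p of 0.673 unblocked and 0.0994 blocked. Without code Z, on 2 libraries per group, the value was 0.90 ± 0.0662 and P4ha1 rose (limma adjusted p 0.0104, or 0.0096 after rescaling). The log2 difference by code was 0.89 in X, 0.90 in Y and 0.39 in Z. For chronic hypoxia and standard oxygen it was 0.63 ± 0.274 (log2, SE), with a limma adjusted p of 0.234 unblocked, 0.0553 blocked and 0.00309 without code Z, where the value was 0.86 ± 0.0675. Chronic and acute hypoxia differed by -0.10 ± 0.163 (log2, SE; limma adjusted p 0.777), within the spread between libraries.

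P4hb (chr11:120560298-120573253), the disulfide isomerase that serves as the other subunit, had 256, 266 and 320 TPM in the standard oxygen libraries X, Y and Z. It had 291, 293 and 382 TPM after acute and 407, 410 and 421 TPM after chronic hypoxia. Every chronic library exceeded every other library, whereas acute and standard libraries overlapped. The chronic log2 difference from standard oxygen was 0.56 ± 0.113 (SE), with a limma adjusted p of 0.0579 unblocked, and P4hb rose with the code as a block (0.0189). The median of all 11067 genes was 0.16 in that comparison, and after rescaling, which moved it to 0.00, the blocked value of P4hb was 0.38 ± 0.077 (limma adjusted p 0.0455). Chronic and acute hypoxia differed by 0.37 ± 0.131 (log2, SE), with a limma adjusted p of 0.191 unblocked and 0.0568 blocked. Without code Z the difference was 0.48 ± 0.0639 (limma adjusted p 0.0127). Acute hypoxia and standard oxygen differed by 0.19 ± 0.146 (log2, SE; limma adjusted p 0.959).

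P3h1 (chr4:119232915-119248975), which modifies single prolines in a complex with Crtap and Ppib, had 6.49, 5.97 and 9.04 TPM in the standard oxygen libraries X, Y and Z. The acute libraries had 6.97, 8.38 and 8.51 TPM and the chronic ones 7.42, 8.98 and 7.80 TPM. The groups overlapped in all comparisons. Its log2 fold changes were 0.15 ± 0.174 for acute and 0.16 ± 0.176 for chronic hypoxia relative to standard oxygen and 0.02 ± 0.136 between chronic and acute hypoxia (SE), and none passed in limma (adjusted p at least 0.615). The last value was -0.12 after rescaling, so its sign depended on the scaling.

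Plod1 (chr4:147909753-147936767), which hydroxylates lysines within the collagen helix, was the gene whose groups separated in every comparison. Its standard oxygen libraries X, Y and Z had 57.8, 62.8 and 63.6 TPM. Acute hypoxia gave 83.1, 85.3 and 90.1 TPM and chronic hypoxia 135, 149 and 122 TPM. No library of one group reached into another. Plod1 rose in chronic hypoxia to 2.20 times the standard oxygen mean, a log2 fold change of 1.12 ± 0.11 (SE) with a limma adjusted p of 0.0101 unblocked and 0.00774 blocked. The unblocked call was lost without standard oxygen replicate 1 (limma adjusted p 0.0744) or 3 (0.0818) and without chronic replicate 1 (0.0701) or 2 (0.068), and when the title number was the block (0.121). The fold change was 1.05 to 1.20 (log2) when 1 library was left out. Chronic exceeded acute hypoxia by 0.64 ± 0.108 (log2, SE), which missed the threshold unblocked (limma adjusted p 0.0599) and passed with the block (0.0176). Acute hypoxia exceeded standard oxygen by 0.48 ± 0.0861 (log2, SE), with a limma adjusted p of 0.174 unblocked and 0.064 blocked. Without code Z the limma adjusted p was 0.0501, and after rescaling it was 0.0377 with a difference of 0.45 ± 0.0619.

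Plod3 (chr5:136987019-136996648), which also carries a glycosyltransferase activity, had another pattern. Its standard oxygen libraries X, Y and Z had 67.7, 77.3 and 104 TPM, its acute libraries 84.0, 80.5 and 101 TPM and its chronic libraries 74.1, 72.5 and 107 TPM. Code Z was highest in every group, and the groups overlapped. The log2 difference from standard oxygen was 0.11 ± 0.176 in acute and 0.03 ± 0.213 in chronic hypoxia (SE), and neither passed in limma (adjusted p at least 0.956). After rescaling the chronic value was -0.15 (limma adjusted p 0.689). Exons of Plod3 overlap Znhit1 on the other strand over 11.7% of their bases, and the use of strand in counting is not stated, so reads of the 2 genes may be mixed. Plod2 (chr9:92542223-92608428) had 0.0791, 0.0616 and 0.0173 TPM in the chronic libraries, too little for a test.

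Within the lysyl hydroxylases, Plod1 made up 43.0% ± 4.30 of the summed TPM of Plod1, Plod2 and Plod3 in standard oxygen, 49.5% ± 2.13 in acute and 61.7% ± 7.49 in chronic hypoxia (SD, n = 3). These groups did not overlap, and each of the 3 pairs had an exact two-sided permutation p of 0.1, the smallest that 3 against 3 can give (0.18 after adjustment over 9 tests). P4ha2 made up 3.40%, 2.82% and 0.342% of P4ha1 plus P4ha2 in the standard oxygen libraries X, Y and Z and 11.1%, 12.9% and 2.54% in the chronic ones. The groups overlapped through code Z (exact permutation p 0.3, adjusted 0.386). Both catalytic subunits together came to 50.7% ± 1.61 of the P4hb level in acute and 38.9% ± 1.56 in chronic hypoxia (SD, n = 3), without overlap (exact permutation p 0.1, adjusted 0.18). In standard oxygen this value was 29.7% in X, 29.7% in Y and 46.3% in Z.

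**Figure D2:**
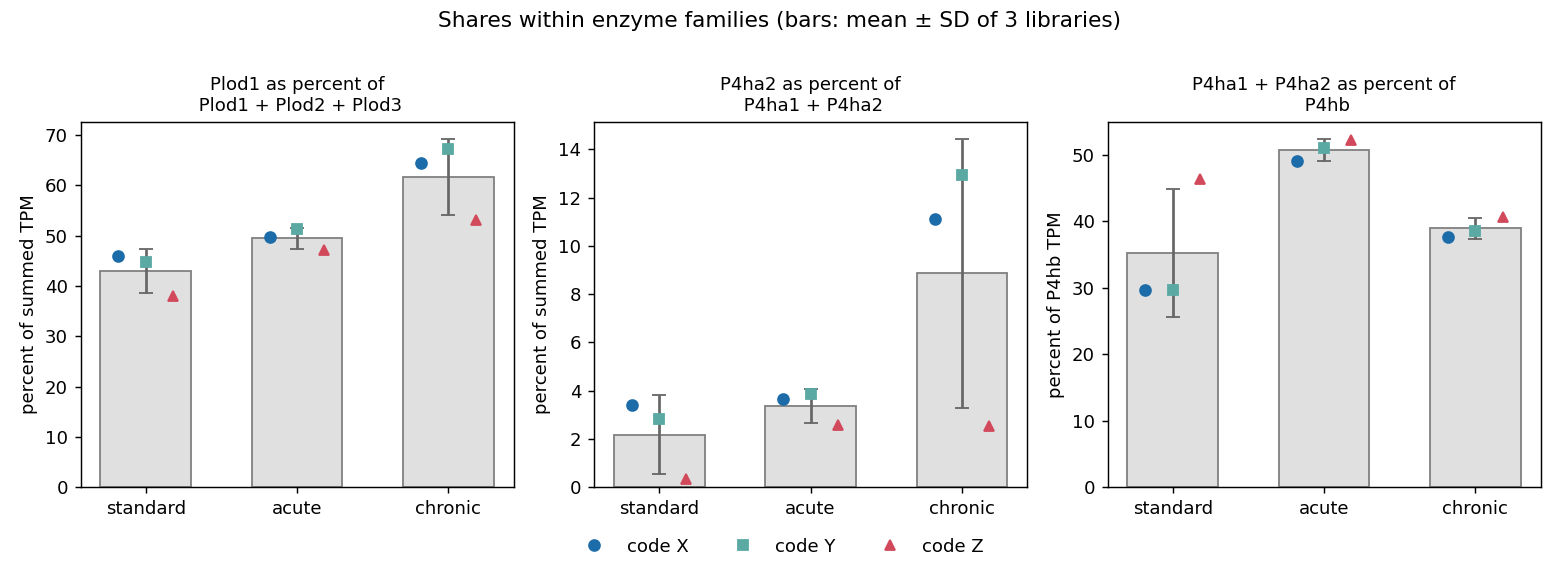
Plod1 as a percent of all Plod transcripts, P4ha2 as a percent of P4ha1 plus P4ha2, and both catalytic subunits as a percent of P4hb, by oxygen group; bars are means, whiskers the SD of 3 libraries and points the libraries by code. The Plod1 share is 38.1% to 46.0% in standard oxygen and 53.2% to 67.3% in chronic hypoxia, with code Z lowest in each group.

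Lox, a lysyl oxidase, separated the libraries by code. In codes X and Y it had 327 and 334 TPM in standard oxygen, 291 and 289 TPM after acute and 409 and 407 TPM after chronic hypoxia, near the level of P4hb. In code Z it had 2.65, 3.03 and 2.73 TPM. The mean of X and Y was 125 times the Z level in standard oxygen, 95.7 times in acute and 149 times in chronic hypoxia. Lox was 1 of 14 among 7107 genes (0.197%) for which code Z was more than 10 times below both other codes in all groups, and C1qa, C1qb and C1qc, the chains of C1q, were among them. With this split, limma's SE for Lox was 2.34 to 2.44 (log2) unblocked. With the code as a block the log2 fold changes were -0.08 ± 0.0927 for acute and 0.21 ± 0.0848 for chronic hypoxia relative to standard oxygen and 0.29 ± 0.139 between chronic and acute hypoxia (SE). None passed (limma adjusted p 0.747, 0.139 and 0.199). Without code Z, Lox was higher in chronic than in acute hypoxia by 0.49 ± 0.0639 (log2, SE; limma adjusted p 0.0122), and by 0.34 (0.0426) after rescaling. Its difference between chronic hypoxia and standard oxygen was then 0.30 ± 0.0601 (limma adjusted p 0.0285), but 0.12 (0.257) after rescaling, so that call was lost.

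Loxl3 (chr6:83034173-83052562), another lysyl oxidase, had 0.704, 0.655 and 0.670 TPM in the standard oxygen libraries X, Y and Z. It had 0.648, 0.417 and 0.728 TPM after acute and 2.33, 1.27 and 0.361 TPM after chronic hypoxia. The chronic libraries X and Y were the highest of the 9 and the chronic library Z the lowest. It passed the filter on low values only without code Z, and only through its chronic level, so no test of it is given. Its exons overlap Htra2 on the other strand over 11.6% of their bases. The other lysyl oxidases, Loxl1, Loxl2 and Loxl4, did not exceed 0.0230, 0.0549 and 0.195 TPM.

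**Figure D3:**
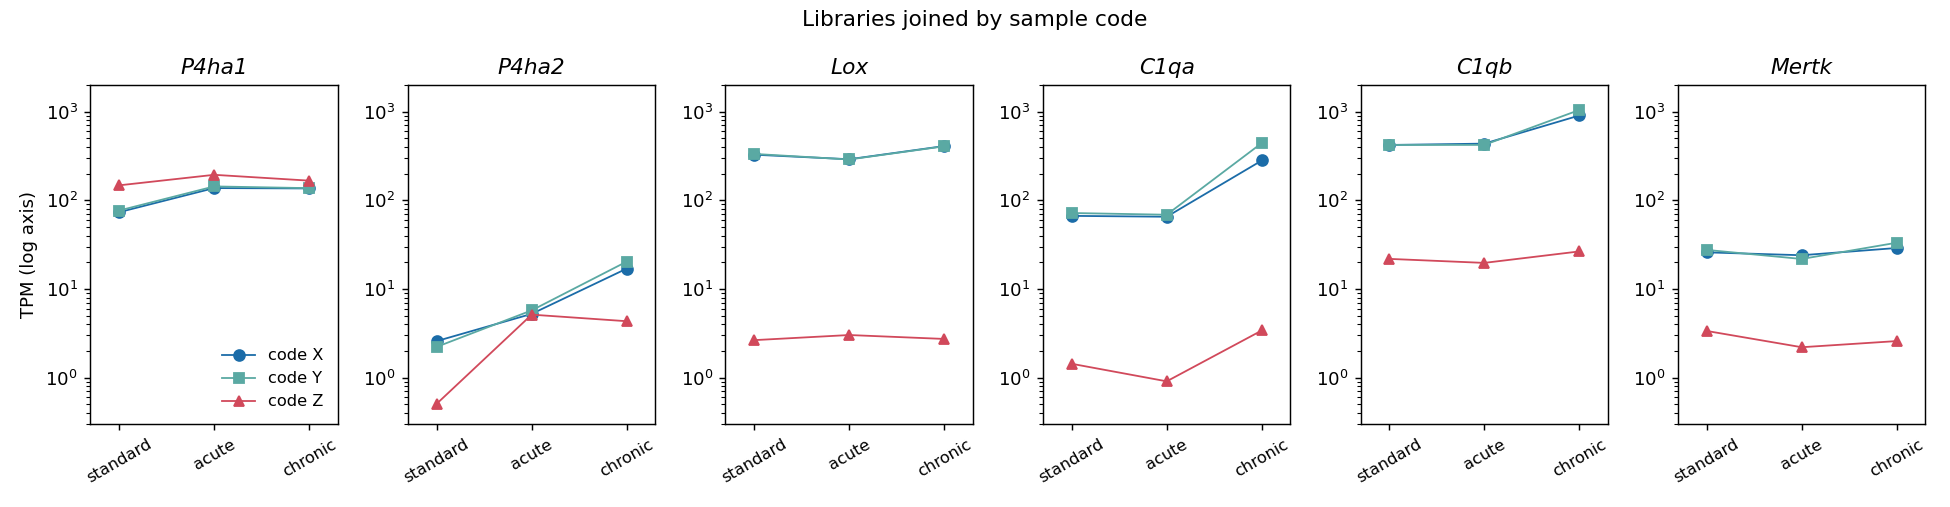
TPM on a log axis in the 3 oxygen groups, with the libraries of a code joined by a line, for P4ha1, P4ha2 and Lox and for C1qa, C1qb and Mertk, which were picked for this plot after their values were seen. Mean X and Y over Z in standard oxygen is 125 for Lox, 48.3 for C1qa and 7.94 for Mertk, while for P4ha1 code Z is 1.97 times the mean of X and Y.

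Of the 7 tested genes, 0 passed in acute hypoxia relative to standard oxygen in the unblocked limma fit, where 0.0273% of 10987 genes passed and 785 had a p under 0.05 before adjustment. The block gave 0 (background 0.71%), and leaving out code Z gave 2, P4ha1 and P4ha2 (background 2.95%). For chronic hypoxia relative to standard oxygen 1 passed unblocked (background 2.69%), 3 with the block, Plod1, P4ha2 and P4hb (background 18.4%), and 5 of the same 7 without code Z (background 21.1%). Between chronic and acute hypoxia 0 passed unblocked (background 0.695%, with 2305 of 11087 genes at p under 0.05 before adjustment). There 1 passed with the block (background 15.5%) and 4 of the same 7 without code Z (background 16.3%). Each of these calls was toward higher levels in the hypoxia group, or in chronic over acute hypoxia. Groups separated with the first one higher for 2, 3 and 2 of the 7, beside 7.63%, 24.2% and 22.3% of all genes. All 3 code pairs were higher for 4, 5 and 2 of the 7, beside 20.9%, 46.9% and 43.5% of all genes. The median log2 fold change of the 7 was 0.19, 0.56 and 0.29, beside 0.01, 0.16 and 0.14 for all genes tested. The last of these medians, 0.29, was the value of Lox (SE 2.38), which split by code. After rescaling the medians of the 7 were 0.17, 0.38 and 0.15, beside -0.0069, 0.0021 and 0.00027. The direction of the calls over all genes depended on scaling: of the chronic calls relative to standard oxygen, 232 were higher and 66 lower as deposited, and 113 and 116 after rescaling. Between chronic and acute hypoxia the split was 61 and 16 as deposited and 29 and 46 after rescaling. The 3 comparisons share groups, so their values are not independent.

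**Figure D4:**
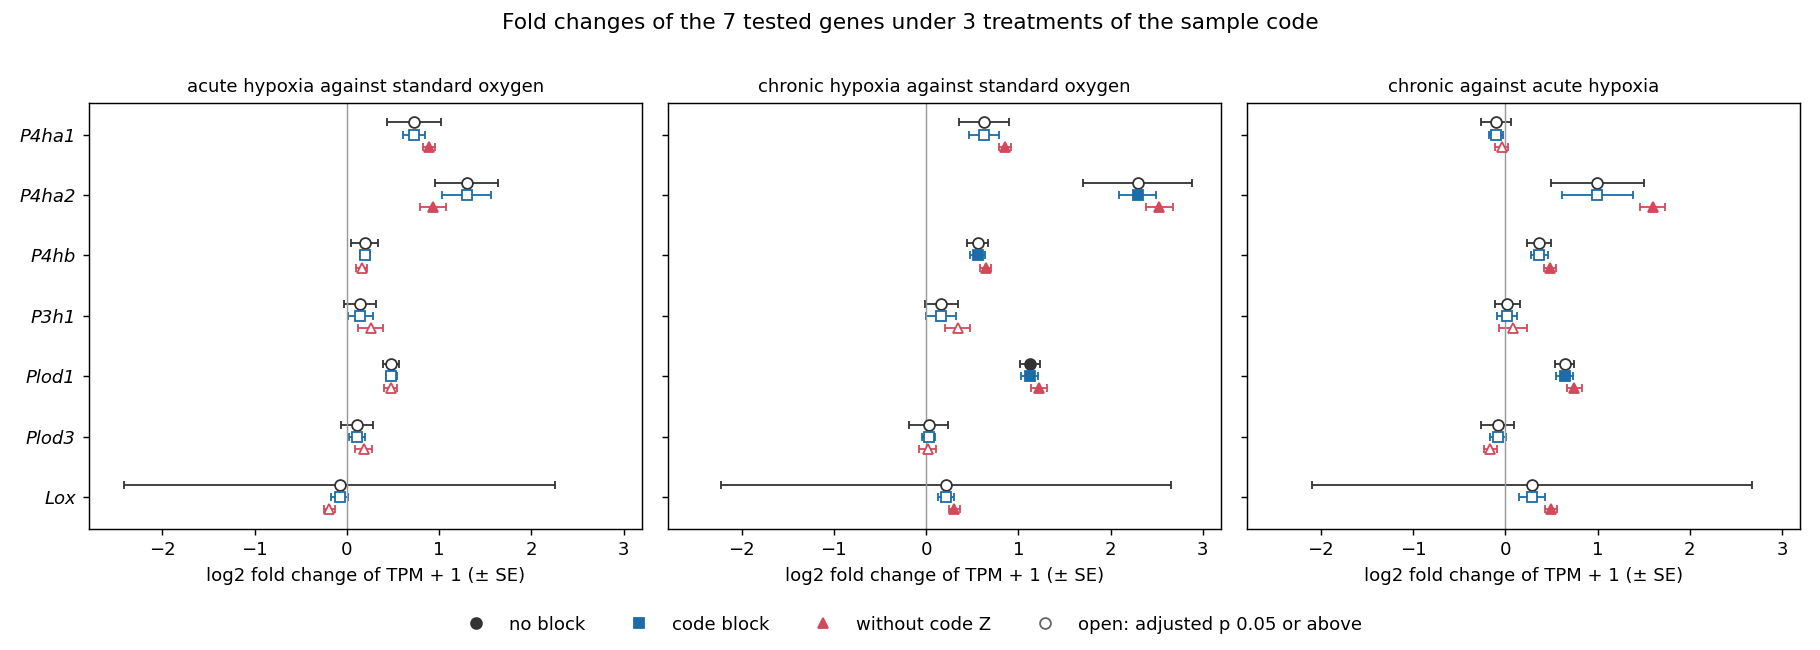
Log2 fold change of TPM + 1 with its SE (horizontal axes) for the 7 tested genes in the 3 comparisons, unblocked (circles), with the code as a block (squares) and without code Z (triangles); filled symbols passed in limma. Plod1 is filled in all 3 analyses of chronic hypoxia relative to standard oxygen, and the unblocked SE of Lox is at least 2.34.

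Partners of these enzymes were counted from lists of the pathway. Of 5 lysyl hydroxylases and hydroxylysine glycosyltransferases 3 were tested, and 2 rose in chronic hypoxia relative to standard oxygen without a block, Plod1 and Colgalt1, beside 2.1% of all genes. Colgalt1, which adds galactose to hydroxylysine, averaged 77.0 ± 1.27 TPM in standard oxygen (SD, n = 3) and 117 ± 10.2 TPM after chronic hypoxia. Its log2 fold change was 0.60 (limma adjusted p 0.0391, or 0.0141 blocked). Of the 6 genes of the prolyl 3-hydroxylase complex and its relatives 5 were tested and 0 passed unblocked in limma in any comparison. With the block 2 rose in chronic hypoxia relative to standard oxygen, Crtap (0.41, limma adjusted p 0.0296) and Ppib (0.37, 0.0233, log2), and neither passed after rescaling (0.109 and 0.1). The shares of all genes that rose were 15.1% with the block and 5.72% with rescaling added. Between acute and chronic hypoxia 3 of the 5 rose with the block and 1 with rescaling added, beside 12.1% and 4.69% of all genes. P3h2, another prolyl 3-hydroxylase, averaged 0.910 ± 1.19 TPM after acute and 2.53 ± 1.61 TPM after chronic hypoxia (SD, n = 3). P3h2 differed by code, with 2.26 to 4.39 TPM in code Z and 0.0194 to 1.68 TPM in X and Y. It was among the 5 genes tested between acute and chronic hypoxia only through its chronic level and code Z. Its fit is therefore not used as support. Without code Z, 4 genes of the list were tested there. P4ha3, the remaining catalytic subunit, did not exceed 0.0440 TPM, nor P4htm, a transmembrane relative, 0.589 TPM.

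Transcripts of the listed collagen chains were scarce, and collagen genes outside that list were not counted with them. Of 25 collagen chain genes 22 were below 1 TPM in all 9 libraries, and none had a mean of 1 TPM over the 9. Col1a1, Col1a2 and Col3a1 did not exceed 0.0619, 0.0712 and 0.0220 TPM. The other 3, named after their values were seen, were Col15a1, Col7a1 and Col11a2, with maxima of 3.26, 1.60 and 1.17 TPM. These maxima were in code Z libraries, and the highest values in X and Y were 1.25, 0.934 and 1.11 TPM. Of 19 chaperones, exporters and trimming enzymes 12 were tested and 0 passed unblocked in limma. With the block Adamts2, a procollagen-trimming protease, fell by 1.05 (log2) in chronic hypoxia relative to standard oxygen (limma adjusted p 0.0264), the 1 call of the list, where 18.4% of all genes passed. Mia2, an export factor, rose with the block between acute and chronic hypoxia (0.41, limma adjusted p 0.0341), but not after rescaling (0.112). It too was the 1 call of the list, where 15.5% of all genes passed.

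Of 12 other proteins with a collagen-like stretch 7 were tested and 0 passed unblocked in limma. This list also held the collagen chain gene Col23a1, which did not reach the level for a test. With the block 2 rose in chronic hypoxia relative to standard oxygen, C1qa (1.84, limma adjusted p 0.0287) and Colec12 (0.54, 0.0276, log2), beside 15.1% of all genes. Marco, a scavenger receptor, fell by 1.30 (log2, limma adjusted p 0.00689 blocked). Its mean was 3529 ± 1183 TPM in standard oxygen, and 1464 ± 592 TPM after chronic hypoxia (SD, n = 3). After rescaling C1qa (0.0439) and Marco (0.00635) still passed in limma by adjusted p, and Colec12 (0.0864) did not. Between acute and chronic hypoxia 4 rose and 1 fell with the block, where 15.5% of all genes passed. C1qb and C1qc were among those that rose, by 0.92 and 1.06 (log2, limma adjusted p 0.0298 and 0.0182), and C1qb did not pass after rescaling (0.0557).

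The 18 genes listed as disulfide isomerases and chaperones of the endoplasmic reticulum, the setting in which P4hb works, were all tested. The list also held Ero1a, Ero1b and Mttp, which are neither isomerases nor chaperones. In chronic hypoxia relative to standard oxygen 3 rose unblocked, 13 with the block and 7 with block and rescaling, beside 2.1%, 15.1% and 5.72% of all genes, and 0 fell. The median log2 fold change of the list was 0.51, beside 0.16 for all genes. Ero1a, which reoxidises disulfide isomerases, averaged 75.9 ± 10.9 TPM in standard oxygen, 256 ± 110 TPM after acute and 236 ± 17.3 TPM after chronic hypoxia (SD, n = 3). Its chronic log2 fold change from standard oxygen was 1.63 ± 0.129 (SE, limma adjusted p 0.0077 unblocked), and it was the 1 gene of the list to rise in acute hypoxia with the block (1.67, 0.0299), where 0.71% of all genes passed. Pdia4 rose by 0.87 (log2, limma adjusted p 0.0272 unblocked) in chronic hypoxia relative to standard oxygen, and the third was Txndc5, named after its value was seen. Pdia6 (0.87), Hsp90b1 (0.79) and Calr (0.67, log2) passed with the block (limma adjusted p 0.0129, 0.0241 and 0.0408) and not without it (0.0508, 0.0633 and 0.158). Calr did not pass after rescaling (0.0929). Hspa5 passed in neither fit of chronic hypoxia and standard oxygen (0.67, limma adjusted p 0.136 unblocked and 0.0619 blocked). Its libraries had 165 to 284 TPM in standard oxygen, 189 to 226 in acute and 315 to 321 in chronic hypoxia. Between acute and chronic hypoxia 2 rose unblocked, 13 with the block and 7 with block and rescaling, beside 0.55%, 12.1% and 4.69% of all genes. The unblocked calls were Pdia4 (1.03) and Pdia6 (0.91, log2; limma adjusted p 0.0456 and 0.0479).

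Of 7 genes of ascorbate and 2-oxoglutarate supply 6 were tested and 0 passed unblocked in limma. With the block Idh1, which makes 2-oxoglutarate from isocitrate, rose in chronic hypoxia relative to standard oxygen (0.34, limma adjusted p 0.0267), but not after rescaling (0.143), where 18.4% of all genes passed with the block. Gsto1 fell by 0.40 (log2) with the block between acute and chronic hypoxia (limma adjusted p 0.0427), where 15.5% of all genes passed.

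**Figure D5:**
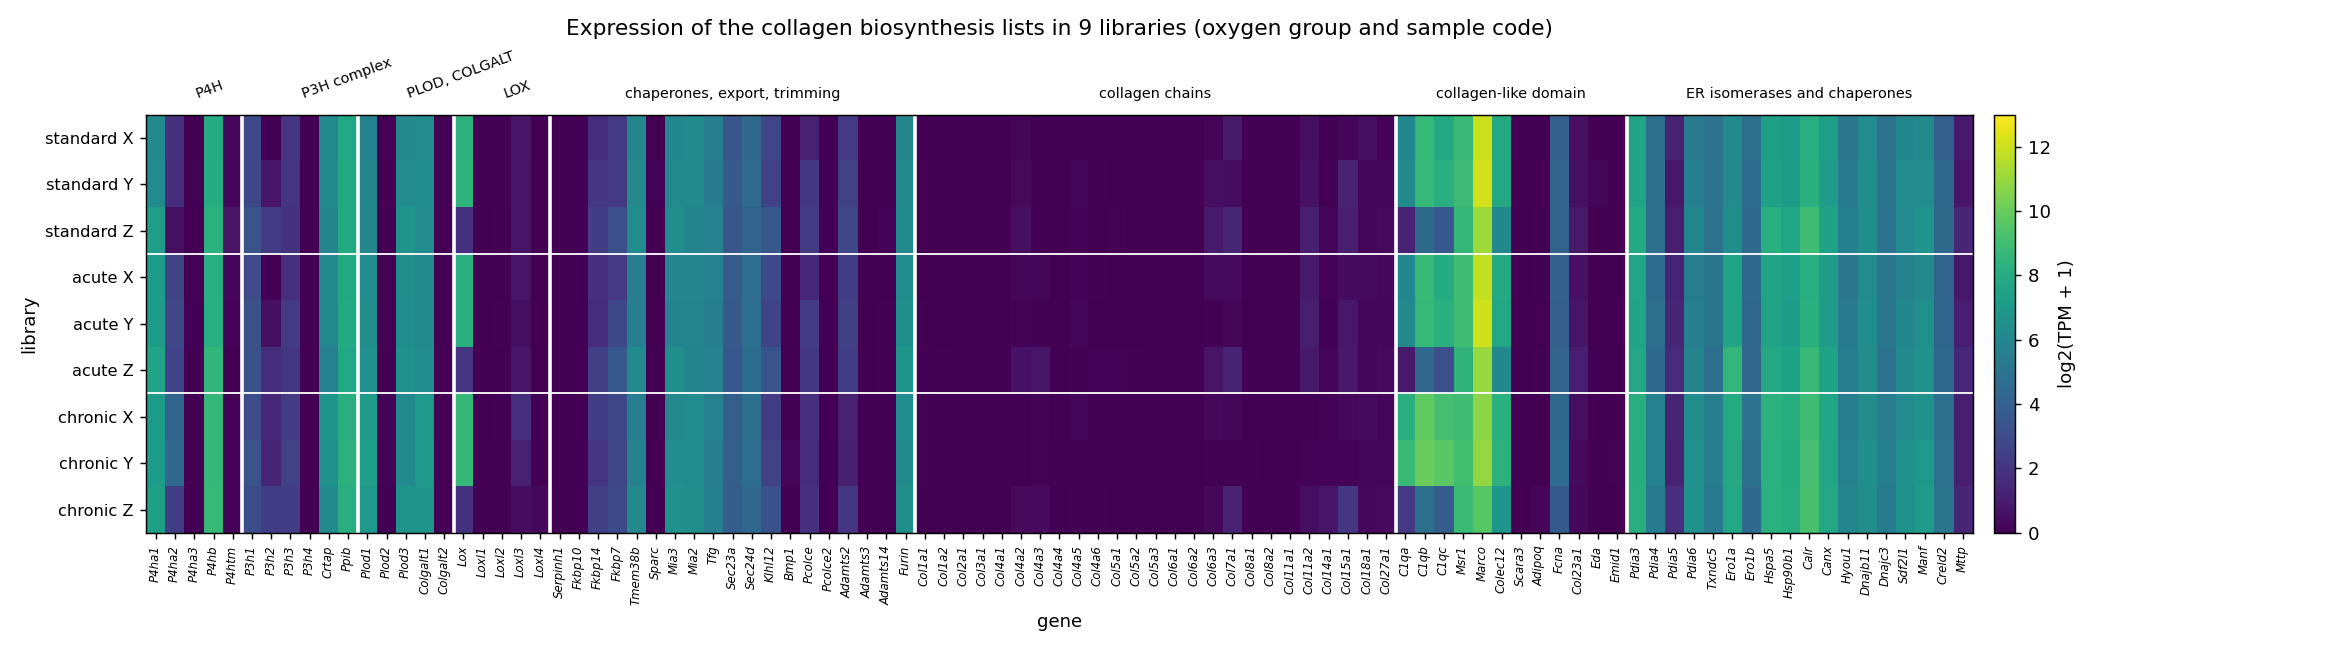
Log2(TPM + 1), as colour, of the genes of 8 lists (columns, white lines between lists) in the 9 libraries (rows, by oxygen group and sample code). The collagen chains are mostly near 0, P4hb and the chaperones of the endoplasmic reticulum are bright, and Lox and the C1q genes are dim in the code Z rows.

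The genes most like P4ha1 and P4ha2 were sought among 7107 genes by Pearson's r of log2(TPM + 1) over the 9 libraries. Nearest to P4ha1 were Tifab (r = 0.975), Ccar1 (r = 0.972) and Fosl2 (r = 0.971). Tifab had 9.31, 10.3 and 30.3 TPM in the standard oxygen libraries X, Y and Z, 37.1, 36.5 and 48.2 TPM in the acute and 35.2, 35.3 and 50.6 TPM in the chronic ones. As in P4ha1, the standard oxygen library of code Z was well above X and Y, a likeness that the choice by r favours. Nearest to P4ha2 were 1190002N15Rik (r = 0.983), Dhrs7 (r = 0.967) and Rab31 (r = 0.958). 1190002N15Rik had 46.6, 48.3 and 17.6 TPM in the chronic libraries X, Y and Z and 15.5, 15.2 and 8.58 TPM in the standard oxygen ones. These are descriptions over 9 points that share oxygen group and code. None is given for Plod2 because of its level.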

How the data were processed

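RNA from 9 macrophage libraries was sequenced as paired 75-base reads, per the labels' protocols. The authors deposited 3 tables of TPM, 1 per pair of groups, and the 9 libraries had identical values in both tables that held them. The submitters' processing notes list FastQC, STAR, featureCounts and GRCm38, and versions, roles and strand use are not given in the sources used here. TPM does not keep depth, so the depth is unknown, no count test was run, and precision rests on 3 libraries per group.

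Symbols were matched for 34582 of 34866 identifiers. Each comparison was fitted over all genes with a mean of at least 1 TPM in its 6 libraries, on log2(TPM + 1), with limma 3.58.1 in R 4.3.3 (eBayes with trend, two-sided). Benjamini-Hochberg adjustment covered all genes tested, and genes under 0.05 passed. Fold changes of low genes are understated by the pseudocount of 1. The fit was tested on simulated data. Replicate numbers of the titles and codes of the descriptions pair the standard oxygen libraries differently with those of the hypoxia groups. Acute and chronic libraries pair the same way by both labels, so both blocks give the same fit in that comparison. Deviations from the group means correlated with r of 0.375 to 0.631 within code pairs and -0.508 to 0.631 within title pairs, across genes. Code Z stood apart in every group, so these r cannot decide how X and Y pair. The code was a block only in alternative fits, and the main fit had no block. Shares were compared by exact permutation tests (scipy 1.17.1). Gene positions and exon overlap came from GENCODE M21 (GRCm38). Of the 75-base stretches of the longest transcript, 11.9% in Plod3, 8.10% in Loxl3 and 0.37% in Plod1 occurred in another listed gene.

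Alternatives were other pseudocounts and filters, no trend, median-of-ratios rescaling, both blocks, all 9 libraries in 1 fit, and leaving out code Z or each library. Leaving out code Z with rescaling was added after seeing the data. Members and lists were chosen with earlier results of these data known. Named were all members, up to 6 passing genes per list by the size of the chronic change from standard oxygen, and the 3 genes most like P4ha1 and P4ha2.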

Additional observations from a re-analysis of the deposited data

How the results depend on the processing

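In the order acute against standard, chronic against standard and chronic against acute, 0, 1 and 0 members passed unblocked. The counts were 0, 0 and 1 with the title replicate block, 0, 3 and 1 with the code replicate block, 0, 3 and 1 with that block and rescaling, 0, 3 and 1 with all 9 libraries in 1 fit and 1, 4 and 2 with the code block added. Without code Z they were 2, 5 and 4, and 2, 4 and 4 with rescaling. Leaving out 1 library gave 0 to 0, 0 to 3 and 0 to 2, with 3 of chronic against standard passing without standard oxygen replicate 2 and 2 without chronic replicate 3, both of code Z. Other pseudocounts, other filters, no trend and rescaling alone left these counts unchanged. The cause was not tested, and fits without code Z rest on 2 libraries per group.

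Over all genes the counts were 3, 298 and 77 unblocked, 21, 229 and 75 with rescaling, 0, 1 and 1724 with the title block, 78, 2039 and 1724 with the code block, 57, 1280 and 1077 with block and rescaling, 25, 770 and 417 with all 9 libraries, 205, 2916 and 2464 with the code block added, 319, 2300 and 1788 without code Z, 359, 1889 and 1320 with rescaling, 5, 166 and 25 with no trend and 4, 120 and 7 with no filter. For chronic against acute the title block and the code block are the same fit. Leaving out 1 library gave 0 to 33, 1 to 522 and 1 to 308.

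Of 398 recomputed fold changes of members, 25 had the other sign, in 8 of 21 results, none of which passed unblocked. Rescaling, with or without the code block, gave -0.15 for Plod3 in chronic against standard and -0.12 for P3h1 in chronic against acute, and -0.16 and -0.0554 without code Z. Leaving out 1 library gave ranges across 0 for Plod3 (-0.0242 to 0.28, -0.15 to 0.20 and -0.26 to 0.0168) and Lox (-2.25 to 1.98, -1.95 to 2.47 and -1.77 to 2.55) in the order above. In chronic against acute they did so for P4ha1 (-0.19 to 0.0559) and P3h1 (-0.0631 to 0.0700). The unknown depth limits statements on genes below 1 TPM.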
